A study of Danio rerio with 26 samples.

Results

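The 40 genes described here are the zebrafish genes that encode Wnt ligands (26 genes) and Frizzled receptors (14 genes). They are all the genes among the 32520 listed whose name in the embryo table starts with wnt or fzd followed by a digit, and they were followed in the other tables by gene identifier. RNA was measured by sequencing in 26 libraries that form 3 tables: znf281b knockdown (KD) embryos and their controls, early embryos, and growing oocytes. All groups carry the same strain label, AB, TF and TLF.

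The knockdown table holds embryos at 4 hours post fertilisation (hpf) labelled znf281b KD (3 libraries) and embryos of the same age labelled pCas13d alone (3 libraries). Cas13d is a nuclease that a guide RNA directs to a chosen transcript, and znf281b encodes a zinc finger protein. These libraries were read on another sequencer (G4), and the sources used here do not give their guide RNAs, library kit or number of embryos. The embryo table holds untreated embryos at 0, 2, 4 and 6 hpf (3 libraries each, 20 embryos without chorion per library). The oocyte table holds the 4 growth stages I to IV, with 50 oocytes per library and 2 libraries per stage. Stages I and II were freed with a mixture of collagenases, stage III with 1 collagenase, and stage IV by hand without enzyme. The females had been purged of eggs 1 to 2 days earlier for stages I and II, 4 to 7 days for stage III and 8 to 10 days for stage IV. Stage, isolation method and days after purging therefore cannot be told apart at stages III and IV. Values are TPM, the share of each library that a gene takes after scaling for transcript length, so levels may be compared between genes within a library. In pooled oocytes or embryos, fewer cells that use a gene and less RNA per cell cannot be told apart.

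Wnt proteins are secreted, lipid-modified signals, and Frizzled proteins are the cell-surface receptors that bind them. With Lrp co-receptors, binding of a Wnt stabilises beta-catenin, which enters the nucleus and switches on target genes through Tcf and Lef factors; with other partners, Frizzled receptors steer cell polarity and movement without beta-catenin. In the early fish embryo, beta-catenin marks the future dorsal side, Wnt8a from the margin later patterns ventral and posterior tissue, and Wnt11 and Wnt5 ligands guide the cell movements of gastrulation.

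Most Wnt genes were barely detected in these libraries, whereas most Frizzled genes were detected. A mean of at least 10 TPM in at least 1 of the 10 groups was reached by 4 of the 26 Wnt identifiers and by 9 of the 14 Frizzled genes. The 4 Wnt identifiers were wnt5b (ENSDARG00000102464), wnt11f2 (ENSDARG00000004256) and 2 identifiers that share the symbol wnt8a. Those are called wnt8a-A for ENSDARG00000052910 and wnt8a-B for ENSDARG00000078507. Another annotation, RefSeq on assembly GRCz12tu, lists wnt8a and a gene wnt8-2 with the same start and end, so reads of the pair could have been divided between the identifiers, and their single values are uncertain. The 9 Frizzled genes were fzd3b, fzd4, fzd5, fzd6, fzd7a, fzd7b, fzd8a, fzd8b and fzd9b.

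The wnt4 and wnt11 genes, with fzd2, fzd3a and fzd10, peaked between 1 and 10 TPM. The remaining 20 Wnt genes stayed under 1 TPM on average in every group, with 0.96 TPM for wnt3a at 6 hpf as the highest of those means. These were wnt1, wnt2, wnt2ba, wnt2bb, wnt3, wnt3a, wnt4b, wnt5a, wnt6a, wnt6b, wnt7aa, wnt7ab, wnt7ba, wnt7bb, wnt8b, wnt9a, wnt9b, wnt10a, wnt10b and wnt16. The gene wnt6b was listed at 0 in all 26 libraries. The receptors fzd1 and fzd9a stayed under 1 TPM as well, with 0.477 TPM at 6 hpf for fzd1 as the highest mean. In the RefSeq annotation the neighbour pairs wnt1 with wnt10b, wnt3a with wnt9a, and wnt6b with wnt10a have 0 protein-coding genes between them, and all of their members belong to this low group.

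**Figure D1:**
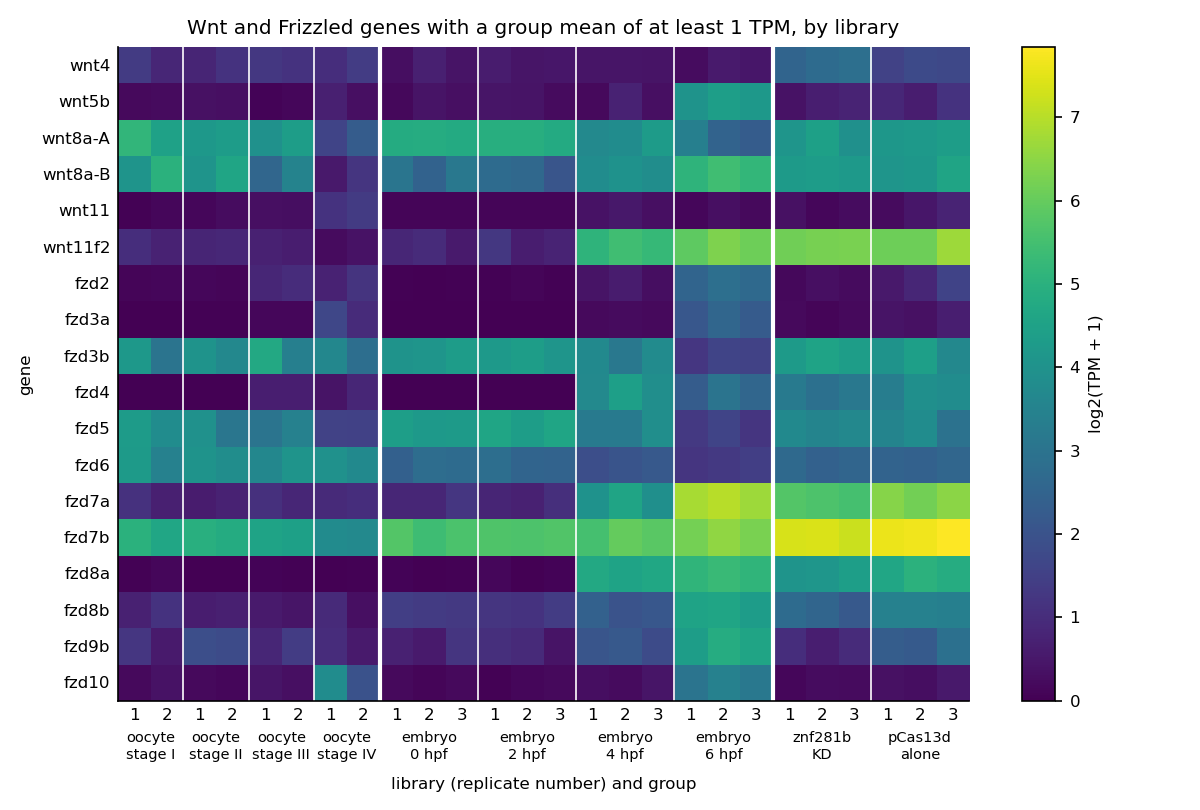
Level of the 18 Wnt and Frizzled genes with a group mean of at least 1 TPM, as log2(TPM + 1) by colour, in each of the 26 libraries; columns are libraries by replicate number within groups, and thick white lines part the 3 tables, which were normalised separately. In embryos fzd7b, fzd5, fzd3b and wnt8a-A are bright from 0 hpf, and wnt11f2, fzd7a and fzd8a become bright at 4 and 6 hpf.

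At fertilisation the embryo held a small set of Wnt and Frizzled transcripts. The summed TPM of the 26 Wnt identifiers averaged 36.6 ± 0.711 at 0 hpf, 36.1 ± 3.13 at 2 hpf, 68.6 ± 6.58 at 4 hpf and 132 ± 15.1 at 6 hpf (SD, n = 3 each). The summed TPM of the 14 Frizzled genes averaged 92.3 ± 6.96, 99.2 ± 2.59, 144 ± 13.2 and 304 ± 35.4 at the same times. At 0 hpf wnt8a-A made up 74.9% ± 3.20 of the Wnt sum, and fzd7b (51.7% ± 2.95), fzd5 (20.2% ± 1.15) and fzd3b (18.3% ± 2.04) most of the Frizzled sum. By 6 hpf the leading Wnt was wnt11f2 (52.2% ± 2.33), and the leading receptors were fzd7a (37.6% ± 1.57) and fzd7b (26.4% ± 0.584).

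Before the zygotic genome was broadly active, none of these genes was called. Genes were tested with limma on log2(TPM + 1) where they reached 1 TPM in at least 3 libraries of the table, and called at an adjusted p under 0.05. Of the 40 genes, 16 passed that filter in the embryo table (4 Wnt identifiers and 12 Frizzled genes). From 0 to 2 hpf, 0 of the 16 were called by limma in either direction and 0 had an unadjusted p under 0.05, against 0.0% of all 16328 genes called higher and 0.0122% called lower. The interval of each difference was wide for single genes: for fzd5, which is needed for eye field development, the 95% interval of the log2 change was -0.15 to 0.63, and for wnt8a-B it was -0.87 to 0.04.

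Between 2 and 4 hpf, when zygotic transcription starts, 8 of the 16 tested genes rose and 4 fell, against 11.0% and 54.7% of all genes tested. The median log2 change was 0.28 over the 16 genes and -0.43 over all genes. Between 4 and 6 hpf, 11 rose and 5 fell, against 22.8% and 55.8% of all genes, with a median of 1.11 over the 16 genes and -0.56 over all genes. Over the whole span, 6 against 0 hpf, 12 were higher and 4 lower, against 21.9% and 67.2%, with medians of 2.64 and -1.06. Of the 16, 4 (wnt5b, fzd2, fzd3a and fzd10) passed the filter only through their 6 hpf libraries, so that they had to differ there. Without those 4, the counts were 7 higher and 4 lower of 12 at 4 against 2 hpf, 7 and 5 at 6 against 4 hpf, and 8 and 4 at 6 against 0 hpf. Of these 12, fzd4 and fzd8a passed only through their 4 and 6 hpf libraries. The genes wnt11f2, fzd7a and fzd9b reached 1 TPM in fewer than 3 libraries of 0 and 2 hpf. They too needed their 4 or 6 hpf libraries to pass. For all the genes just named, higher levels there than at 0 and 2 hpf were favoured by the filter, so these counts are not free of it.

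The split of all genes depended on the scaling. Median-of-ratios scaling, which sets the typical gene to no change, moved the median of all genes by 0.47 at 4 against 2 hpf, by 0.60 at 6 against 4 hpf and by 1.09 at 6 against 0 hpf (log2). Under it 25.3% of all genes were called higher and 21.9% lower at 4 against 2 hpf, 41.1% and 36.9% at 6 against 4 hpf, and 43.0% and 41.0% at 6 against 0 hpf. None of the 16 genes that was called changed direction under that scaling, but several falls were no longer called, as given with each gene.

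Among the ligands, wnt11f2, the silberblick gene that acts in convergence and extension of the body axis, had the highest level. Its libraries read 0.78, 0.95 and 0.48 TPM at 0 hpf, 1.40, 0.55 and 0.73 TPM at 2 hpf, 33.4, 42.1 and 37.1 TPM at 4 hpf, and 59.2, 78.8 and 68.6 TPM at 6 hpf. All 4 hpf libraries lay far above all 2 hpf libraries, and all 6 hpf libraries above all 4 hpf libraries. The rise at 4 against 2 hpf (log2 change 4.37, SE 0.18, limma adjusted p = 1.18e-09) was followed by a smaller one at 6 against 4 hpf (log2 change 0.85, SE 0.18, limma adjusted p = 0.000865).

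The wnt5b ligand, pipetail in zebrafish, which also acts in gastrulation movements, came later. It read 0.12, 0.33 and 0.26 TPM at 0 hpf, 0.37, 0.34 and 0.17 TPM at 2 hpf, 0.16, 0.68 and 0.24 TPM at 4 hpf, and 15.2, 20.1 and 17.1 TPM at 6 hpf. Its 6 hpf libraries stood apart from all the others, which overlapped one another. At 6 against 4 hpf the change was large (log2 change 3.77, SE 0.17, limma adjusted p = 9.77e-10), while at 4 against 2 hpf it did not pass the test (log2 change 0.06, limma adjusted p = 0.777). The wnt5b gene passed the filter only through its 6 hpf libraries, so it had to differ there.

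The wnt8a identifiers, whose product signals through beta-catenin, moved in opposite directions. The identifier wnt8a-A read 27.4, 28.2 and 26.6 TPM at 0 hpf, 28.9, 28.9 and 26.6 TPM at 2 hpf, 11.99, 12.99 and 18.6 TPM at 4 hpf, and 9.54, 4.65 and 3.87 TPM at 6 hpf. It was high and even at 0 and 2 hpf, lower in all 4 hpf libraries and lowest at 6 hpf. As deposited it fell at 4 against 2 hpf (log2 change -0.93, SE 0.24, limma adjusted p = 0.00433) and at 6 against 4 hpf (log2 change -1.21, SE 0.24, limma adjusted p = 0.000441), but after median-of-ratios scaling neither fall was called (log2 change -0.37, limma adjusted p = 0.267 and log2 change -0.44, limma adjusted p = 0.138); the fall at 6 against 0 hpf was called under both (log2 change -2.10, limma adjusted p = 1.95e-06; log2 change -0.77, limma adjusted p = 0.0155 after scaling).

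The identifier wnt8a-B read 7.36, 4.52 and 7.87 TPM at 0 hpf, 5.73, 5.22 and 3.15 TPM at 2 hpf, 13.1, 15.1 and 13.3 TPM at 4 hpf, and 33.4, 42.7 and 35.8 TPM at 6 hpf. Its 4 hpf libraries lay above all earlier ones, and its 6 hpf libraries were the highest of all. It rose at 4 against 2 hpf (log2 change 1.41, SE 0.21, limma adjusted p = 8.43e-05) and at 6 against 4 hpf (log2 change 1.36, SE 0.21, limma adjusted p = 5.28e-05). Its share of the summed TPM of the pair was 19.3% ± 4.80 at 0 hpf, 14.1% ± 3.13 at 2 hpf, 49.2% ± 6.55 at 4 hpf and 86.1% ± 7.18 at 6 hpf (SD, n = 3). Summed as 1 gene, a choice made after the values were seen, the pair averaged 34.0 ± 1.09, 32.8 ± 2.71, 28.4 ± 3.40 and 43.3 ± 3.82 TPM over the same times. The sum did not pass the test at 4 against 2 hpf (log2 change -0.21, SE 0.11, limma adjusted p = 0.105) and rose at 6 against 4 hpf (log2 change 0.60, SE 0.11, limma adjusted p = 0.000217).

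The other ligands above 1 TPM were low in these embryos. Means of wnt4, a ligand needed for ovary and kidney development in the mouse, lay between 0.35 TPM at 6 hpf and 0.423 TPM at 2 hpf. Means of wnt11, which the oocyte table lists as wnt11r, lay between 0.073 TPM at 2 hpf and 0.323 TPM at 4 hpf.

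**Figure D2:**
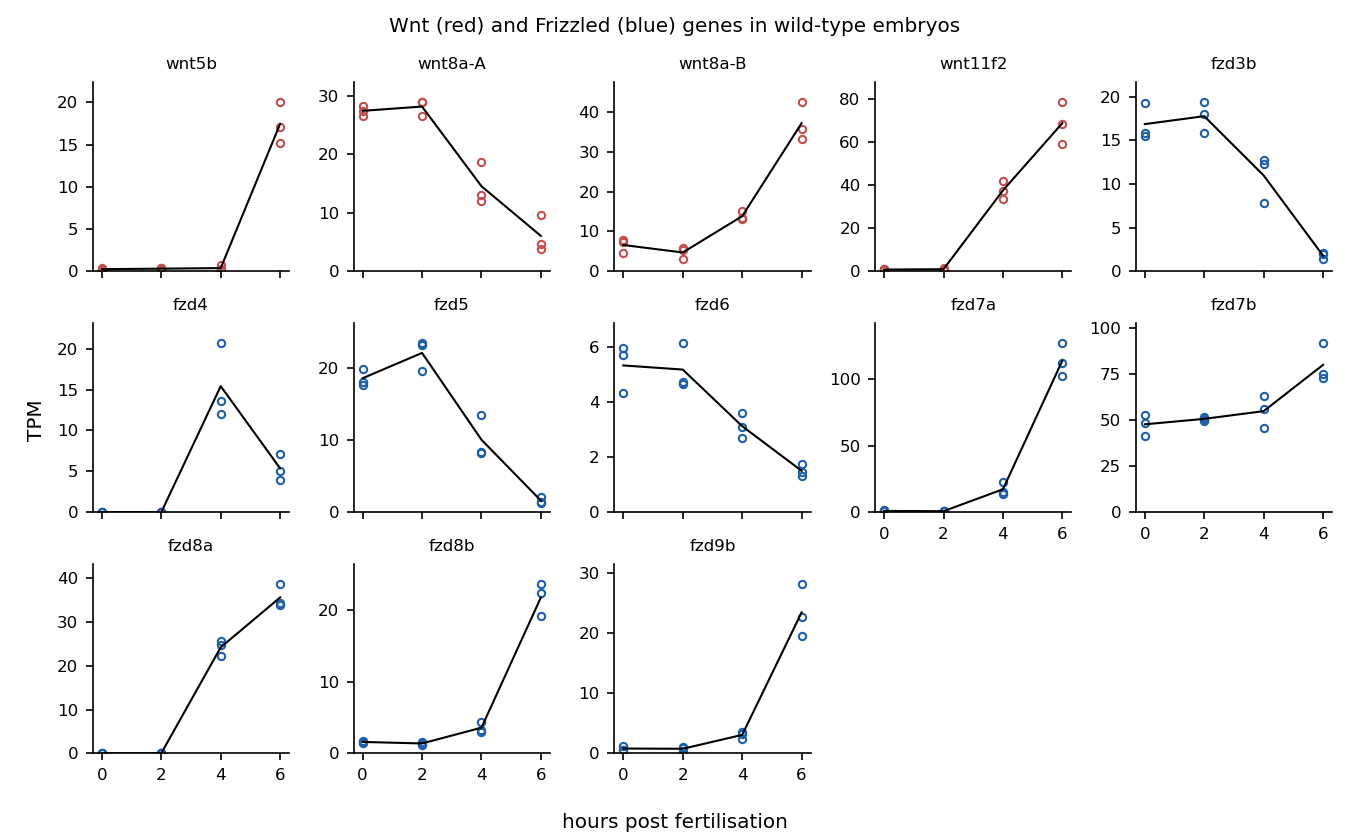
TPM of the 13 Wnt (red) and Frizzled (blue) genes with a group mean of at least 10 TPM in any group, in untreated embryos at 0, 2, 4 and 6 hpf; circles are libraries (3 per time), lines join the means, and each panel has its own axis from 0. The genes wnt8a-A, fzd3b, fzd5 and fzd6 descend from 2 hpf on, fzd4 is highest at 4 hpf, and the other 8 are highest at 6 hpf.

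Of the receptors, fzd7a and fzd7b, which act in gastrulation movements of the zebrafish, reached the highest levels. The fzd7b gene read 53.1, 41.7 and 48.7 TPM at 0 hpf, 50.8, 49.7 and 51.9 TPM at 2 hpf, 45.6, 63.1 and 56.3 TPM at 4 hpf, and 73.2, 92.1 and 75.3 TPM at 6 hpf. It was already high at 0 hpf, its 2 and 4 hpf libraries overlapped, and its 6 hpf libraries lay above all others. At 4 against 2 hpf it did not pass the test as deposited (log2 change 0.10, SE 0.13, limma adjusted p = 0.508) but was called higher after median-of-ratios scaling (log2 change 0.67, limma adjusted p = 0.000647); at 6 against 4 hpf it rose (log2 change 0.54, SE 0.13, limma adjusted p = 0.00205).

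The paralog fzd7a read 0.80, 0.81 and 1.35 TPM at 0 hpf, 0.76, 0.66 and 1.06 TPM at 2 hpf, 14.9, 22.99 and 14.0 TPM at 4 hpf, and 112, 127 and 103 TPM at 6 hpf. It was near 1 TPM at 0 and 2 hpf, higher in every 4 hpf library and above 100 TPM in every 6 hpf library. It rose at 4 against 2 hpf (log2 change 3.30, SE 0.19, limma adjusted p = 2.36e-08) and again at 6 against 4 hpf (log2 change 2.68, SE 0.19, limma adjusted p = 3.87e-08). Its share of the summed TPM of fzd7a and fzd7b was 2.03% ± 0.619 at 0 hpf, 1.59% ± 0.361 at 2 hpf, 23.8% ± 3.49 at 4 hpf and 58.8% ± 1.53 at 6 hpf (SD, n = 3).

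The receptors fzd8a and fzd8b, of the Frizzled 8 type known from anterior neural patterning, had different courses. The fzd8a gene read 0.06, 0 and 0.03 TPM at 0 hpf, 0.09, 0 and 0.06 TPM at 2 hpf, 25.6, 22.2 and 24.7 TPM at 4 hpf, and 33.8, 38.6 and 34.3 TPM at 6 hpf. It was at or near 0 until 2 hpf and near its later level in every 4 hpf library. On the log2 scale most of its rise fell in the interval of 4 against 2 hpf (log2 change 4.58, SE 0.13, limma adjusted p = 1.99e-11), with a smaller one at 6 against 4 hpf (log2 change 0.54, SE 0.13, limma adjusted p = 0.00162) that was not called with a pseudocount of 0.1 TPM (limma adjusted p = 0.0771). The fzd8b gene read 1.77, 1.60 and 1.45 TPM at 0 hpf, 1.33, 1.22 and 1.63 TPM at 2 hpf, 4.42, 3.03 and 3.34 TPM at 4 hpf, and 22.5, 23.7 and 19.2 TPM at 6 hpf. It was present from 0 hpf, and its 6 hpf libraries stood well above its 4 hpf libraries. It rose at 4 against 2 hpf (log2 change 0.93, SE 0.15, limma adjusted p = 0.00019) and more at 6 against 4 hpf (log2 change 2.32, SE 0.15, limma adjusted p = 2.18e-08).

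The fzd9b receptor read 0.64, 0.49 and 1.31 TPM at 0 hpf, 1.07, 0.91 and 0.34 TPM at 2 hpf, 3.22, 3.56 and 2.48 TPM at 4 hpf, and 19.5, 28.2 and 22.7 TPM at 6 hpf. Its 4 hpf libraries lay above all 2 hpf libraries, and its 6 hpf libraries were several times higher still. Both rises passed the test, at 4 against 2 hpf (log2 change 1.22, SE 0.22, limma adjusted p = 0.000402) and at 6 against 4 hpf (log2 change 2.58, SE 0.22, limma adjusted p = 2.28e-07). The fzd4 receptor, which binds Norrin as well as Wnts in the mammalian retina, read 0.01, 0.02 and 0.01 TPM at 0 hpf, 0.01, 0.01 and 0 TPM at 2 hpf, 11.96, 20.7 and 13.6 TPM at 4 hpf, and 3.91, 7.14 and 5.04 TPM at 6 hpf. It was the only tested member that rose at 4 against 2 hpf (log2 change 3.99, SE 0.21, limma adjusted p = 1.03e-08) and fell at 6 against 4 hpf (log2 change -1.36, SE 0.21, limma adjusted p = 5.43e-05). The fall was also called after median-of-ratios scaling (log2 change -0.61, limma adjusted p = 0.0188).

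The receptors fzd5, fzd3b and fzd6 fell from their level at 0 and 2 hpf. The fzd5 gene read 19.9, 17.7 and 18.1 TPM at 0 hpf, 23.2, 19.6 and 23.5 TPM at 2 hpf, 8.23, 8.43 and 13.6 TPM at 4 hpf, and 1.48, 2.07 and 1.32 TPM at 6 hpf. Libraries of 4 hpf lay below all of 2 hpf and those of 6 hpf below all of 4 hpf. The falls at 4 against 2 hpf (log2 change -1.09, SE 0.18, limma adjusted p = 0.000194) and 6 against 4 hpf (log2 change -2.05, SE 0.18, limma adjusted p = 2.78e-07) were also called after median-of-ratios scaling (log2 change -0.54, limma adjusted p = 0.00629 and log2 change -1.47, limma adjusted p = 7.68e-07).

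The fzd3b gene, a counterpart of the mouse Fzd3 that guides axons, read 15.5, 15.9 and 19.3 TPM at 0 hpf, 18.03, 19.4 and 15.9 TPM at 2 hpf, 12.3, 7.85 and 12.8 TPM at 4 hpf, and 1.34, 2.06 and 1.92 TPM at 6 hpf. The times from 2 to 6 hpf did not overlap, and 6 hpf was the lowest. It fell at 4 against 2 hpf as deposited (log2 change -0.67, SE 0.18, limma adjusted p = 0.00622) but not after median-of-ratios scaling (log2 change -0.13, limma adjusted p = 0.534), and fell at 6 against 4 hpf under both (log2 change -2.09, limma adjusted p = 2.66e-07; log2 change -1.49, limma adjusted p = 2.01e-06 after scaling). Its paralog fzd3a averaged 0.153 ± 0.023 TPM at 4 hpf and 4.05 ± 0.898 TPM at 6 hpf. That gene passed the filter only through its 6 hpf libraries. The share of fzd3a in the pair's summed TPM was 1.48% ± 0.658 at 4 hpf and 69.5% ± 3.11 at 6 hpf.

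The fzd6 gene, which orients hair follicles in the mouse, read 4.33, 5.97 and 5.70 TPM at 0 hpf, 6.15, 4.75 and 4.65 TPM at 2 hpf, 2.68, 3.11 and 3.59 TPM at 4 hpf, and 1.31, 1.47 and 1.74 TPM at 6 hpf. It was low throughout, and its 4 and 6 hpf libraries lay below all earlier ones. As deposited it fell at 4 against 2 hpf (log2 change -0.58, limma adjusted p = 0.00744), 6 against 4 hpf (log2 change -0.72, limma adjusted p = 0.00128) and 6 against 0 hpf (log2 change -1.33, limma adjusted p = 4.12e-06). After median-of-ratios scaling none of these was called (log2 changes -0.11, -0.14 and -0.27, limma adjusted p = 0.562, 0.396 and 0.096).

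A pair of low receptors, fzd10 and fzd2, rose at 6 hpf. Both passed the filter only through their 6 hpf libraries, so they had to differ there. The fzd10 gene averaged 8.28 ± 1.52 TPM at 6 hpf, against 0.257 ± 0.10 TPM at 4 hpf (log2 change 2.88, limma adjusted p = 1.68e-09). The fzd2 gene averaged 5.503 ± 0.766 TPM at 6 hpf, against 0.353 ± 0.137 TPM at 4 hpf (log2 change 2.26, limma adjusted p = 5.63e-09). At 4 against 2 hpf fzd2 was called higher by a small amount (log2 change 0.37, limma adjusted p = 0.0219), a call that was lost without replicate 2 of 4 hpf or without replicate 1 or 3 of 2 hpf.

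**Figure D3:**
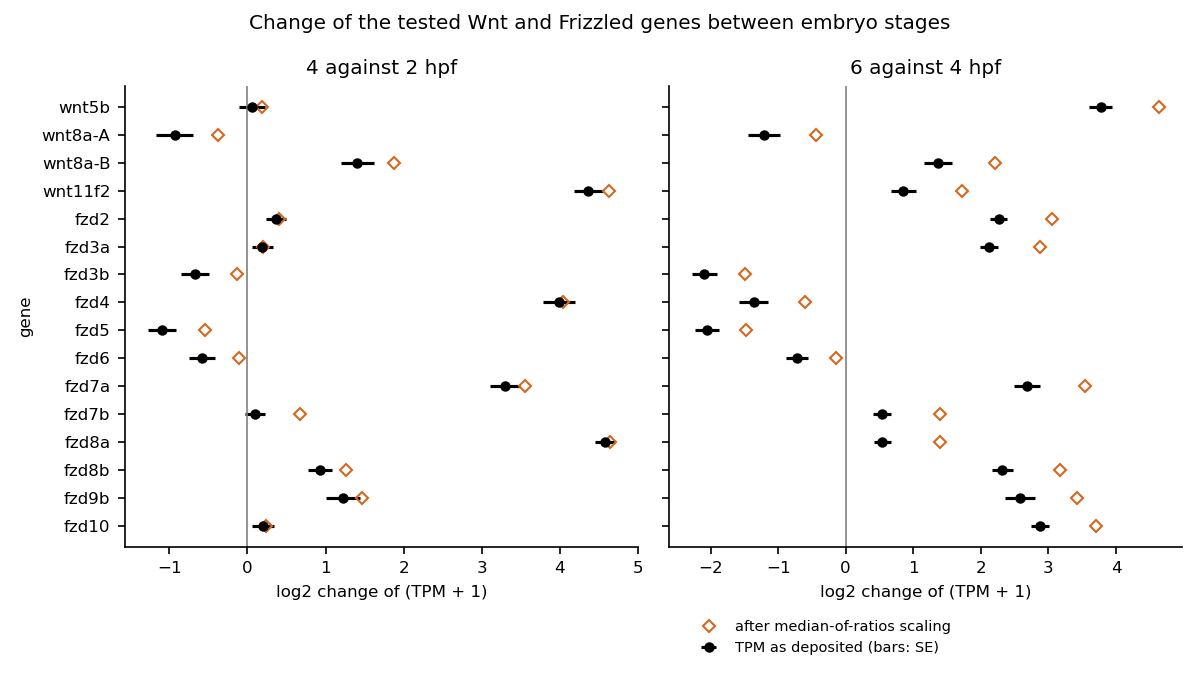
Change of log2(TPM + 1) of the 16 tested Wnt and Frizzled genes at 4 against 2 hpf and at 6 against 4 hpf; black points are TPM as deposited with their SE, and open diamonds are the values after median-of-ratios scaling. The scaling shifts the values to the right at 6 against 4 hpf, and fzd6 and wnt8a-A then lie closest to 0 among the falling genes.

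Markers of age and tissue moved with these intervals. The 8 oocyte markers summed to 1261 to 1306 TPM at 0 hpf, 1141 to 1262 TPM at 2 hpf, 368 to 585 TPM at 4 hpf and 86.1 to 98.7 TPM at 6 hpf. The 6 blastoderm and margin markers summed to 489 to 709.8 TPM at 4 hpf and 1286 to 1455 TPM at 6 hpf, and the 7 enveloping layer markers to 305 to 562 TPM and 2671 to 3104 TPM. Of these 3 lists none was at 0 throughout a time, and their part in the changes of the Wnt and Frizzled genes was not tested.

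The Wnt inhibitors that passed the filter mostly rose in the same intervals. Of all genes tested, 11.0% rose and 54.7% fell at 4 against 2 hpf, and 22.8% and 55.8% at 6 against 4 hpf. Of 18 antagonists listed, 6 passed the filter. Of those 6, 4 rose and 0 fell at 4 against 2 hpf, and 6 rose at 6 against 4 hpf. Their median log2 changes were 1.00 and 1.97 (all genes: -0.43 and -0.56), and the counts were the same after scaling. The antagonists dkk1b and notum1a averaged 0.027 and 0.44 TPM at 0 hpf, and 0.047 and 0.31 TPM at 2 hpf. They passed the filter only through their 4 and 6 hpf libraries, so their rises were favoured by it. The Wnt-binding protein sfrp1a averaged 72.5 ± 9.82 TPM at 6 hpf, against 31.4 ± 6.86 TPM at 4 hpf (log2 change 1.19, limma adjusted p = 5.18e-06). The Lrp blocker dkk1b averaged 28.05 ± 2.73 TPM at 6 hpf, against 8.75 ± 2.57 TPM at 4 hpf (log2 change 1.61, limma adjusted p = 4.48e-06), and notum1a, an enzyme that removes the Wnt lipid, 46.4 ± 8.28 against 8.12 ± 3.996 TPM (log2 change 2.47, limma adjusted p = 3.17e-06). Of 15 tested Wnt target genes, 9 rose and 3 fell at 4 against 2 hpf (9 and 1 after median-of-ratios scaling). At 6 against 4 hpf, 13 rose and 1 fell (14 and 1 after scaling). The targets tbx16 and ved averaged 0.04 and 0.277 TPM at 0 hpf, and 0.02 and 0.213 TPM at 2 hpf. They too passed the filter only through later libraries. Low early levels were also seen for tbxta (0.18 TPM at 0 hpf), sp5l (0.0133 TPM at 0 hpf) and vox (0.147 TPM at 2 hpf). Rises of such genes were favoured by the filter, so the counts of rising targets are not free of it. The targets tbxta, tbx16 and vox are also among the blastoderm and margin markers. The mesoderm factor tbxta averaged 259 ± 15.4 TPM at 6 hpf, against 7.59 ± 4.54 TPM at 4 hpf (log2 change 5.08, limma adjusted p = 1.19e-08).

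Counts for the intracellular parts of the pathway depended on the scaling. Of all genes tested, 11.0% rose and 54.7% fell at 4 against 2 hpf as deposited. After median-of-ratios scaling, 25.3% rose and 21.9% fell. Of 24 cytoplasmic genes tested, 3 rose and 11 fell at 4 against 2 hpf as deposited, and 9 rose and 4 fell after median-of-ratios scaling. The beta-catenin gene ctnnb1 averaged 357 ± 13.8 TPM at 6 hpf, against 153 ± 8.51 TPM at 4 hpf (log2 change 1.21, limma adjusted p = 1.7e-08). Of 14 nuclear factors, 0 rose and 8 fell at 4 against 2 hpf (2 and 1 after scaling), of 16 planar polarity genes 4 rose and 8 fell (6 and 3), and of 8 co-receptors 0 rose and 3 fell (5 and 1). The secretion gene porcnl, which by its name is related to porcupine, averaged 9.12 ± 0.807 TPM at 6 hpf, against 34.7 ± 4.39 TPM at 4 hpf (log2 change -1.81, limma adjusted p = 7.34e-09). The ubiquitin ligase znrf3, which removes Frizzled receptors from the cell surface, averaged 2.37 ± 0.693 TPM at 6 hpf, against 11.5 ± 4.13 TPM at 4 hpf (log2 change -1.86, limma adjusted p = 1.82e-06).

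During oocyte growth the Wnt sum was lower at each later stage, while the means of the Frizzled sum lay closer together; the sums were not tested. The summed TPM of the 26 Wnt identifiers averaged 55.7 ± 1.44 at stage I, 41.6 ± 7.39 at stage II, 28.5 ± 7.06 at stage III and 8.76 ± 1.72 at stage IV (SD, n = 2 each). The summed TPM of the 14 Frizzled genes averaged 72.9 ± 23.0, 71.8 ± 10.7, 65.8 ± 7.21 and 50.4 ± 14.1 at the same stages. Both wnt8a identifiers together made up most of the Wnt sum at stages I to III, and fzd7b, fzd5, fzd6 and fzd3b most of the Frizzled sum.

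Early growth brought no call. The filter (1 TPM in at least 2 libraries) was passed by 11 of the 40 genes in oocytes: wnt4, both wnt8a identifiers, wnt11, fzd3b, fzd5, fzd6, fzd7a, fzd7b, fzd9b and fzd10. At stage II against I, 0 of the 11 were called by limma in either direction and 1 (fzd9b) had an unadjusted p under 0.05, against 0.156% of 16067 genes called higher and 0.0187% called lower. At stage III against II, 0 of the 11 were called by limma and 1 (wnt8a-B) had an unadjusted p under 0.05, against 2.0% and 0.529% of all genes. Median-of-ratios scaling moved the median of all genes by -0.14 at stage II against I and by 0.15 at stage III against II.

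At stage IV, 2 of the 11 tested genes were higher and 4 lower than at stage III, against 14.3% and 13.3% of all genes. The same counts held at stage IV against I, where 22.9% of all genes were called higher and 22.4% lower. In both comparisons the 2 higher genes were wnt11 and fzd10. Both passed the filter only through their stage IV libraries, so the count of higher genes was fixed by the filter. The median log2 change of the 11 genes was -0.34 at stage IV against III and -0.12 at stage IV against I, and that of all genes was -0.05 and -0.07.

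The ligand identifier wnt8a-A read 34.5 and 21.6 TPM at stage I, 17.1 and 19.3 TPM at stage II, 14.8 and 19.7 TPM at stage III, and 2.03 and 3.82 TPM at stage IV. Stage IV lay below every other library. It fell at stage IV against III (log2 change -2.24, SE 0.34, limma adjusted p = 0.00293) and against I (log2 change -2.89, SE 0.34, limma adjusted p = 0.000426). The identifier wnt8a-B read 15.8 and 30.99 TPM at stage I, 15.7 and 23.2 TPM at stage II, 4.97 and 10.4 TPM at stage III, and 0.44 and 1.29 TPM at stage IV. It spread widely within stages and was lowest at stage IV. It too fell at stage IV against III (log2 change -2.19, SE 0.47, limma adjusted p = 0.0118) and against I (log2 change -3.67, SE 0.47, limma adjusted p = 0.000645). Summed, the pair averaged 51.4 ± 1.63 TPM at stage I, 37.6 ± 6.89 at stage II, 25.0 ± 7.34 at stage III and 3.79 ± 1.87 at stage IV, and was lower at stage IV than at III (log2 change -2.47, SE 0.32, limma adjusted p = 0.00191).

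The receptor fzd5 read 18.7 and 12.96 TPM at stage I, 14.6 and 7.47 TPM at stage II, 7.09 and 9.98 TPM at stage III, and 1.91 and 1.87 TPM at stage IV. Both stage IV libraries lay below all the others. It fell at stage IV against III (log2 change -1.71, SE 0.37, limma adjusted p = 0.0132) and against I (log2 change -2.52, SE 0.37, limma adjusted p = 0.00128). The receptor fzd7b read 31.5 and 23.97 TPM at stage I, 30.01 and 27.6 TPM at stage II, 22.2 and 20.9 TPM at stage III, and 12.6 and 12.04 TPM at stage IV. Its stage IV libraries were the lowest and its stage III libraries the next. It fell at stage IV against III (log2 change -0.76, SE 0.21, limma adjusted p = 0.03) and against I (log2 change -1.09, SE 0.21, limma adjusted p = 0.00385).

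Other receptors of the oocyte did not pass the test at stage IV. The fzd3b gene read 16.96 and 7.05 TPM at stage I, 15.3 and 11.7 TPM at stage II, 25.6 and 9.46 TPM at stage III, and 11.3 and 6.16 TPM at stage IV, with overlapping stages (log2 change -0.83, SE 0.54, limma adjusted p = 0.291 at stage IV against III). The fzd6 gene read 18.5 and 9.88 TPM at stage I, 15.3 and 13.3 TPM at stage II, 11.5 and 15.5 TPM at stage III, and 14.5 and 12.2 TPM at stage IV. Its libraries overlapped at every stage (log2 change -0.01, SE 0.33, limma adjusted p = 0.991 at stage IV against III), with a 95% interval of -0.76 to 0.74 for that log2 change. Lower still, fzd7a averaged between 0.61 and 0.98 TPM and fzd9b between 0.735 and 2.58 TPM over the 4 stages, and wnt4 between 0.985 and 1.34 TPM. Low in oocytes were also wnt11f2, wnt5b, fzd8a and fzd8b, all higher at 6 than at 0 hpf in embryos: the highest stage mean was 0.85 TPM for wnt11f2, 0.42 TPM for wnt5b, 0.07 TPM for fzd8a and 0.925 TPM for fzd8b.

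A pair of genes was higher at stage IV. The wnt11 ligand averaged 1.39 ± 0.255 TPM at stage IV, against 0.235 ± 0.0071 TPM at stage III (log2 change 0.95, SE 0.19, limma adjusted p = 0.00838). The fzd10 receptor read 13.04 and 2.97 TPM at stage IV, against 0.36 and 0.24 TPM at stage III (log2 change 2.52, SE 0.50, limma adjusted p = 0.00908). Its stage IV libraries differed widely from each other, though both lay above all earlier ones. Both genes passed the filter only through their stage IV libraries, so they had to differ there.

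Markers of other cells moved with stages III and IV. Among all genes tested at stage III against II, 2.0% were called higher and 0.529% lower. Of the markers tested there, 4 of 11 follicle, 2 of 6 stromal, 1 of 6 blood and immune and 0 of 4 enveloping layer markers were higher, and 0 were lower. The stromal markers summed to 13.7 to 14.2 TPM at stage II, and the blood and immune markers to 5.05 to 6.1 TPM. Among all genes tested at stage IV against III, 14.3% were called higher and 13.3% lower. All 12 ovarian follicle markers together summed to 959 to 1022 TPM at stage IV, against 458 to 518 TPM at stage III. Among the 11 tested, 7 were higher and 2 lower (7 and 1 after median-of-ratios scaling). The 7 blood and immune markers summed to 220.1 to 1077 TPM, against 42.9 to 88.9 TPM, with 4 of 6 tested higher. The 6 stromal markers summed to 135 to 248 TPM, against 95.4 to 110.1 TPM, with 0 of 6 called. The 7 enveloping layer markers, the same list as in embryos, summed to 83.5 to 854 TPM, against 17.2 to 19.0 TPM, with 3 of 4 tested higher. Of these 7, the keratin krt5 was at 720.4 TPM in replicate 1 of stage IV and at 0.39 TPM in replicate 2. None of these markers was at 0 in both stage IV libraries. The follicle markers also summed to 291 to 315 TPM in embryos at 0 hpf, so their sum does not measure follicle cells alone. Of them, cyp11a1 averaged 601 ± 75.9 TPM at stage IV, 279 ± 3.17 TPM at stage III and 247 ± 13.4 TPM in embryos at 0 hpf. The follicle marker inha averaged 172 ± 0.424 TPM at stage IV, against 17.3 ± 7.5 TPM at stage III. The 8 oocyte markers were detected at every stage, with 2402 to 3345 TPM at stage IV, against 4831 to 5112 TPM at stage III. The part of other cells in the changes of wnt11, fzd10 and the falling genes was not tested. Without replicate 1 of stage IV, fzd10 was higher by a smaller amount (log2 change 1.61, limma adjusted p = 0.00354) and wnt11 by a similar one (log2 change 1.06, limma adjusted p = 0.00791).

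The stage IV against III calls leaned on single libraries. Only the fall of wnt8a-A was called in each of the 4 fits that left out 1 library. The count of 2 higher genes dropped to 0 without replicate 2 of stage III, and the count of 4 lower genes dropped to 1 without replicate 1 of stage IV or without replicate 2 of stage III and to 2 without replicate 2 of stage IV. At stage IV against I all 6 calls were made in each such fit.

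**Figure D4:**
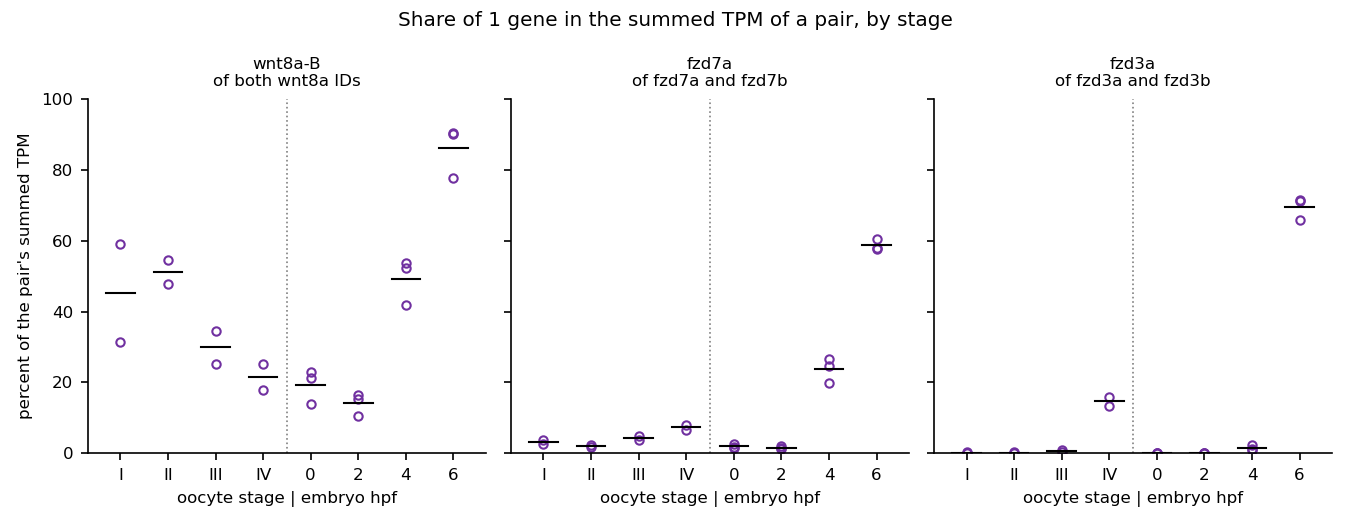
Share of 1 gene in the summed TPM of a pair, for wnt8a-B of both wnt8a identifiers, fzd7a of fzd7a and fzd7b, and fzd3a of fzd3a and fzd3b; circles are libraries of oocyte stages I to IV and of embryos at 0 to 6 hpf, bars are means, and the dotted line parts the oocyte from the embryo table. All 3 shares are highest at 6 hpf, where they average 86.1%, 58.8% and 69.5%.

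Other pathway genes at stage IV changed in both directions. Of all genes tested, 14.3% were called higher and 13.3% lower at stage IV against III. At stage IV against III, 1 of 3 secretion genes rose and 0 fell, 1 of 8 co-receptors rose and 3 fell, and 2 of 4 genes of the R-spondin system rose and 1 fell. The co-receptor ror2 averaged 1.08 ± 0.085 TPM at stage IV, against 8.37 ± 0.827 TPM at stage III (log2 change -2.17, limma adjusted p = 0.00233). Of 18 cytoplasmic genes 1 rose and 3 fell, of 14 nuclear factors 1 rose and 3 fell, and of 16 polarity genes 3 rose and 2 fell. The nuclear effector lef1 averaged 3.27 ± 0.198 TPM at stage IV, against 14.1 ± 1.24 TPM at stage III (log2 change -1.82, limma adjusted p = 0.00247).

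In the knockdown, znf281b itself read 149, 147 and 171 TPM in znf281b KD embryos, against 219, 269 and 267 TPM in pCas13d alone embryos (log2 change -0.69, SE 0.11, limma adjusted p = 0.00991), and the groups did not overlap. Of the 40 Wnt and Frizzled genes, 13 passed the filter (1 TPM in at least 3 libraries). In znf281b KD embryos 5 of them fell and 1 rose, against 3.05% of 15068 genes called lower and 6.32% called higher. All 5 that fell are Frizzled receptors, of 9 tested, and the 1 that rose is a ligand, of 4 tested. Of the 5, fzd9b needed its pCas13d alone libraries to pass the filter, so this count is not free of it. The median log2 change was -0.61 over the 9 Frizzled genes, -0.04 over the 4 Wnt identifiers and 0.09 over all genes. The Frizzled sum averaged 277 ± 11.9 TPM in znf281b KD embryos and 378 ± 20.7 TPM in pCas13d alone embryos, and the Wnt sum 117 ± 5.71 and 122 ± 25.5 TPM (SD, n = 3 each).

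The largest fall was that of fzd9b. It read 1.03, 0.57 and 0.94 TPM in znf281b KD embryos, against 3.98, 3.67 and 6.49 TPM in pCas13d alone embryos. All znf281b KD libraries lay near or below 1 TPM and under all controls. The gene reached 1 TPM in 4 libraries and needed those of pCas13d alone to pass the filter. A lower level in znf281b KD embryos was therefore favoured by the filter. The change (log2 change -1.61, SE 0.24, limma adjusted p = 0.00856) was called in each of the 6 fits that left out 1 library, with adjusted p between 0.00994 and 0.0441.

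Both fzd7 genes fell. The fzd7a gene read 52.7, 49.5 and 45.2 TPM in znf281b KD embryos, against 85.3, 70.5 and 88.8 TPM in pCas13d alone embryos. The groups did not overlap (log2 change -0.71, SE 0.12, limma adjusted p = 0.0126). Its adjusted p was 0.0611 without replicate 2 and 0.0508 without replicate 3 of znf281b KD. The fzd7b gene, the most abundant of the 40 in these embryos, read 163, 167 and 148 TPM in znf281b KD embryos, against 197, 204 and 229 TPM in pCas13d alone embryos. The groups did not overlap, although the difference was smaller (log2 change -0.39, SE 0.09, limma adjusted p = 0.0356). The call was lost in 5 of the 6 fits that left out 1 library (all but that without replicate 2 of pCas13d alone), with adjusted p between 0.0388 and 0.12 over the 6. With the replicate number as a block it was not called either (limma adjusted p = 0.0632).

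Both fzd8 genes fell as well. The fzd8b gene read 5.71, 4.84 and 3.53 TPM in znf281b KD embryos, against 9.88, 9.95 and 9.44 TPM in pCas13d alone embryos. Its control libraries were close together and above all znf281b KD libraries (log2 change -0.94, SE 0.19, limma adjusted p = 0.0239). The call was lost without any 1 of the znf281b KD libraries or without replicate 1 of pCas13d alone, with adjusted p between 0.0314 and 0.0888 over the 6 fits. The fzd8a gene read 15.8, 16.3 and 19.9 TPM in znf281b KD embryos, against 24.04, 31.6 and 28.1 TPM in pCas13d alone embryos. Every znf281b KD library lay below every control (log2 change -0.66, SE 0.15, limma adjusted p = 0.0368), but the call was lost in each fit that left out 1 library.

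The wnt4 ligand rose. It read 4.78, 5.75 and 6.21 TPM in znf281b KD embryos, against 1.91, 2.40 and 2.25 TPM in pCas13d alone embryos, with no overlap (log2 change 1.04, SE 0.19, limma adjusted p = 0.0152). That call was lost without replicate 2 or 3 of znf281b KD or replicate 1 of pCas13d alone. Counted over all 13 genes, the 5 lower calls became 2, 1 and 1 without replicates 1, 2 and 3 of znf281b KD, and 2, 4 and 3 without replicates 1, 2 and 3 of pCas13d alone. With no filter on low values fzd7a and fzd9b were the only genes of the 40 called lower, and wnt4 was not called (limma adjusted p = 0.0562).

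The other 7 tested genes were not called. The fzd4 receptor read 8.33, 6.39 and 7.76 TPM in znf281b KD embryos, against 9.12, 13.98 and 13.2 TPM in pCas13d alone embryos. Its groups did not overlap, but it missed the threshold (log2 change -0.61, SE 0.20, limma adjusted p = 0.0934). The abundant ligand wnt11f2 read 69.3, 74.4 and 75.2 TPM in znf281b KD embryos, against 68.2, 68.8 and 103 TPM in pCas13d alone embryos, with control libraries on both sides of them (log2 change -0.11, SE 0.16, limma adjusted p = 0.707, 95% interval -0.48 to 0.26).

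The wnt8a identifiers gave no call either. The identifier wnt8a-A read 16.03, 20.8 and 14.4 TPM in znf281b KD embryos, against 16.7, 18.1 and 19.7 TPM in pCas13d alone embryos (log2 change -0.09, limma adjusted p = 0.753, 95% interval -0.48 to 0.29). The identifier wnt8a-B read 18.4, 19.3 and 17.7 TPM in znf281b KD embryos, against 16.01, 16.6 and 23.1 TPM in pCas13d alone embryos (log2 change 0.01, limma adjusted p = 0.977, 95% interval -0.37 to 0.39). Both groups overlapped for each of them, and the share of wnt8a-B in the pair was 52.2% ± 3.66 in znf281b KD embryos and 50.3% ± 3.27 in pCas13d alone embryos.

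Receptors that descend in untreated embryos after 2 hpf overlapped between the groups. The fzd3b gene read 18.3, 22.6 and 19.7 TPM in znf281b KD embryos, against 15.4, 20.7 and 11.7 TPM in pCas13d alone embryos (log2 change 0.35, limma adjusted p = 0.302). The fzd5 gene read 12.3, 10.7 and 11.6 TPM in znf281b KD embryos, against 10.5, 13.2 and 6.74 TPM in pCas13d alone embryos (log2 change 0.21, limma adjusted p = 0.596). The fzd6 gene read 5.46, 4.40 and 4.90 TPM in znf281b KD embryos, against 4.69, 4.36 and 5.05 TPM in pCas13d alone embryos (log2 change 0.05, limma adjusted p = 0.872). The 95% intervals of these log2 changes were -0.12 to 0.82 for fzd3b, -0.32 to 0.73 for fzd5 and -0.35 to 0.45 for fzd6, and changes within these bounds could not be detected with these samples. The wnt5b ligand, which in untreated embryos stood out only at 6 hpf, read 0.30, 0.57 and 0.72 TPM in znf281b KD embryos, against 0.84, 0.55 and 1.20 TPM in pCas13d alone embryos and was not tested.

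**Figure D5:**
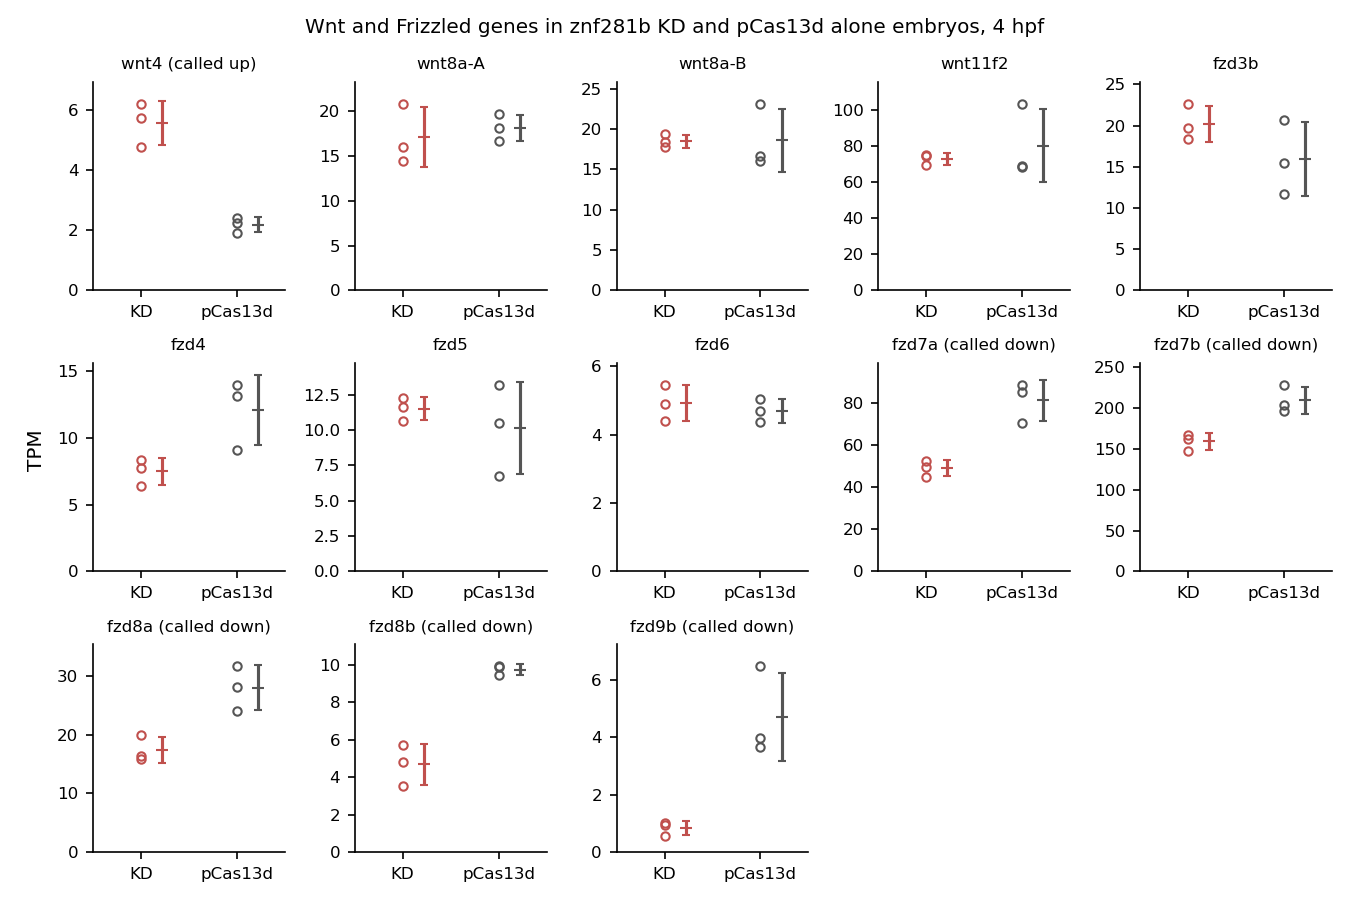
TPM of the 13 tested Wnt and Frizzled genes in znf281b KD (left in each panel) and pCas13d alone (right) embryos at 4 hpf; circles are libraries (3 per group), bars are mean ± SD, and each panel has its own axis from 0. The groups do not overlap for wnt4, fzd4, fzd7a, fzd7b, fzd8a, fzd8b and fzd9b.

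The genes that fell in the knockdown are among those that rise in untreated embryos. Of 7 members tested in both tables that rose at 6 against 4 hpf, 5 fell in the knockdown, and of the 5 that fell at 6 against 4 hpf, 0 were called in the knockdown. For all genes tested in both tables, 9.09% of those that rose at 6 against 4 hpf and 1.2% of those that fell were called lower in the knockdown. For the interval of 4 against 2 hpf, 4 of 7 members that rose and 0 of 4 that fell were called lower, against 26.5% and 0.199% of all genes.

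Markers of tissue and age moved with the knockdown. Among all genes tested there, 3.05% were called lower and 6.32% higher. The 6 blastoderm and margin markers summed to 977 to 1013 TPM in znf281b KD embryos, against 1403 to 1984 TPM in pCas13d alone embryos, and 5 of 6 were called lower. The 7 enveloping layer markers summed to 511 to 544 TPM, against 764 to 1322 TPM, with 2 of 6 tested called lower (3 after median-of-ratios scaling). The 8 oocyte markers summed to 977 to 990.0 TPM, against 658 to 799 TPM, with 1 of 8 called higher, the germ plasm organiser buc at 396 ± 7.02 TPM in znf281b KD embryos and 144 ± 56.3 TPM in pCas13d alone embryos. The 12 ovarian follicle markers summed to 219.6 to 243 TPM, against 189 to 226 TPM, with 0 of 2 tested called. None of the blastoderm, enveloping layer and oocyte markers was at 0 in all libraries of either group. Their part in the falls of the Frizzled genes was not tested.

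Among the other pathway lists the Wnt targets had the most calls. The 11 tested Wnt targets included 0 that rose and 5 that fell, against 6.32% and 3.05% of all genes. In untreated embryos 9 of 15 tested targets rose at 4 against 2 hpf. Of all genes tested in both tables that rose in that interval, 26.5% were called lower in the knockdown. The targets tbxta, tbx16 and vox are also among the blastoderm and margin markers, so the counts of both lists share genes. Their median log2 change was -0.88, and that of all genes 0.09. The mesoderm factor tbx16 averaged 49.6 ± 1.53 TPM in znf281b KD embryos and 134 ± 77.1 TPM in pCas13d alone embryos (log2 change -1.27, limma adjusted p = 0.0427), and the ventral repressor ved 50.2 ± 9.27 and 123 ± 39.2 TPM (log2 change -1.24, limma adjusted p = 0.0142). Of 4 antagonists 0 rose and 1 fell, sfrp1a, at 24.4 ± 3.45 TPM in znf281b KD embryos and 73.4 ± 19.5 TPM in pCas13d alone embryos (log2 change -1.53, limma adjusted p = 0.00575). Of 15 polarity genes 0 rose and 2 fell, among them prickle1b at 26.4 ± 4.36 and 62.2 ± 12.9 TPM (log2 change -1.20, limma adjusted p = 0.00749).

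The Lrp, Ror and other co-receptors (7 tested) gave 0 calls by limma, with 0 called after median-of-ratios scaling. Among all genes tested in the knockdown, 6.32% were called higher and 3.05% lower. The secretion list had 0 rises and 1 fall of 3, porcnl at 60.8 ± 6.99 TPM in znf281b KD embryos and 107 ± 11.3 TPM in pCas13d alone embryos (log2 change -0.81, limma adjusted p = 0.00835). Of 13 nuclear factors 2 rose and 0 fell (1 and 0 after median-of-ratios scaling). Of 20 cytoplasmic genes 1 rose and 0 fell, and of 3 genes of the R-spondin system 1 rose and 0 fell. That last gene, rspo1, which encodes a secreted enhancer of Wnt signalling, averaged 6.65 ± 0.939 TPM in znf281b KD embryos and 3.01 ± 0.674 TPM in pCas13d alone embryos (log2 change 0.94, limma adjusted p = 0.0277).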

How the data were processed

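The authors deposited TPM per gene. The submitters' processing notes name STAR 2.7.3a, RSEM and the build danRer11; the annotation release is not given in the sources used here. Oocyte and embryo libraries were stranded and depleted of ribosomal RNA (100 ng or 500 ng of RNA), per the labels' protocols. TPM keeps no depth, so the depth is unknown, counting error cannot be given, and low values are the least precise. Each table column matched 1 sample (0 columns of other series).

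Names are those of the embryo table, since the oocyte table lists wnt11f2 as wnt11 and wnt11 as wnt11r. All 40 identifiers were in the reference gene names, and 38 of 38 symbols with 1 identifier matched RefSeq of assembly GRCz12tu, which is not the authors' build, so coordinates and sequences are not given.

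The test was limma 3.58.1 (R 4.3.3), fitted once per table to log2(TPM + 1) of all groups, with empirical Bayes moderation with a mean trend, and Benjamini-Hochberg adjustment over all genes tested; the code was tested on simulated data. Fold changes are on that log2(TPM + 1) scale, which understates changes of low genes. Tables were normalised separately, so tests stayed within a table. The named genes are all 40, with library values for those reaching a mean of 10 TPM in a group or called in the knockdown, and up to 3 called genes of each other list with the highest means. The members and lists were chosen with earlier results of these data known. Alternatives were a pseudocount of 0.1 TPM, no filter, median-of-ratios scaling, fitting only the groups compared, leaving out each library, and a replicate block.

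The knockdown replicates have no stated origin, so their p-values measure only a spread that may be technical. Libraries of 1 group correlated at 0.976 to 0.995 (Pearson's r on log2(TPM + 1) across genes, which are not independent), and 0 pairs were identical. Same-numbered libraries deviated together in every pair at 6 against 4 hpf (correlations 0.127 to 0.32), where the replicate block changed none of the 16 calls. At 6 against 0 hpf the correlations were also positive but smaller (0.086 to 0.144). At stage II against I, with only 2 pairs, the correlation was 0.437. Elsewhere they lay between -0.204 and 0.135.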

Additional observations from a re-analysis of the deposited data

How the results depend on the processing

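No value changed its sign in a called gene of the 40. Median-of-ratios scaling gave 1 instead of 4 genes called lower at 4 against 2 hpf and 3 instead of 5 at 6 against 4 hpf. With no filter on low values, 8 genes instead of 5 were called lower at 6 against 4 hpf, 4 instead of 2 higher at stage IV against III, 6 instead of 2 higher at stage IV against I, and 2 instead of 5 lower in the knockdown, where fzd7a and fzd9b stayed called. When single libraries were left out, the counts ranged from 7 to 8 higher at 4 against 2 hpf, from 0 to 2 higher and 1 to 3 lower at stage IV against III, and from 0 to 1 higher and 1 to 4 lower in the knockdown; the other counts did not move. A pseudocount of 0.1 TPM ended 1 call, fzd8a at 6 against 4 hpf (limma adjusted p = 0.0771), and fitting only the groups compared ended 0. The replicate block ended 1 call, fzd7b in the knockdown (limma adjusted p = 0.0632), where the numbers are not known to pair the samples (correlations -0.016 to 0.135). It ended no other call of the 40 genes. For genes of the other lists, median-of-ratios scaling was the only alternative examined. Without a known depth, low values have no counting error to set beside them, and 2 or 3 libraries per group leave wide intervals.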

Other observations

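Some genes that did not pass the filter in a table were called when no filter on low values was used. The wnt3a ligand averaged 0.96 ± 0.386 TPM at 6 hpf, against 0.09 ± 0.108 TPM at 4 hpf (log2 change 0.83, limma adjusted p = 0.000463), and the fzd1 receptor 0.477 ± 0.167 against 0.013 ± 0.023 TPM (log2 change 0.54, limma adjusted p = 4.5e-05). The wnt7ab ligand was highest at 4 hpf: it averaged 0.05 ± 0.087 TPM at 2 hpf, 0.463 ± 0.075 TPM at 4 hpf and 0.13 ± 0.114 TPM at 6 hpf (log2 change 0.48, limma adjusted p = 0.000529 at 4 against 2 hpf and log2 change -0.38, limma adjusted p = 0.00153 at 6 against 4 hpf). In the knockdown fzd9a averaged 0.443 ± 0.166 TPM in znf281b KD embryos and was listed at 0 in all 3 pCas13d alone libraries. At stage IV the receptor fzd3a averaged 1.55 ± 0.842 TPM, against 0.02 ± 0 TPM at stage I (log2 change 1.28, limma adjusted p = 0.00564), and fzd2 0.975 ± 0.403 against 0.085 ± 0.0071 TPM (log2 change 0.85, limma adjusted p = 0.0101).

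Levels set side by side across tables carry no test, because the tables were normalised separately and differ in sequencer, RNA input or isolation. At 0 hpf fzd7b averaged 47.8 ± 5.76 TPM and at oocyte stage IV 12.3 ± 0.424 TPM. The receptor fzd5 averaged 18.6 ± 1.18 TPM at 0 hpf and 1.89 ± 0.028 TPM at stage IV, and wnt8a-A 27.4 ± 0.81 and 2.92 ± 1.27 TPM. The pCas13d alone embryos averaged 209.7 ± 16.8 TPM of fzd7b and 81.5 ± 9.73 TPM of fzd7a, and untreated embryos of 4 hpf 55.01 ± 8.85 and 17.3 ± 4.95 TPM. For fzd6 the values were 4.70 ± 0.345 TPM in pCas13d alone embryos and 3.13 ± 0.455 TPM in untreated embryos of 4 hpf.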
